A study of Homo sapiens with 6 samples.

Results

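The genes described here are 49 regulators of chromatin that are studied in leukaemia: histone methyltransferases, demethylases, acetyltransferases, deacetylases, bromodomain readers, polycomb subunits and enzymes of DNA methylation. They were chosen by name, and the symbols of all 49 were matched among the 20036 listed genes. RNA-seq was performed on MV411, a human cell line from a monocytic acute myeloid leukaemia, in which KMT2A is fused and FLT3 carries an internal tandem duplication. The cells, labelled wild type in genotype, received corilagin, a plant ellagitannin, or DMSO for 48 h, and each group had 3 libraries. Whether these were separate cultures is not stated in the labels, so the p-values cover the spread among libraries and that spread may be technical. The unit is FPKM, the number of fragments divided by gene length and by the fragments of the library. TET1 stayed under a mean of 1 FPKM and was not tested, which left 48 genes for the fit.

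Chromatin regulators act by adding, removing or reading marks on histone tails and on cytosines. KMT2A methylates lysine 4 of histone H3, and its leukaemic fusions lose that domain, keep the part that binds menin, and recruit partners such as DOT1L to genes of the HOXA cluster and MEIS1. Inhibitors of menin, DOT1L, KDM1A, EZH2, histone deacetylases and DNA methyltransferases have been developed against leukaemia.

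Each library held 17776956 to 21640689 fragments, as inferred from the steps of the FPKM values. All 10 myelomonocytic markers of MV411 averaged at least 1 FPKM over the 6 libraries. Their summed level was 650 to 652 FPKM in the corilagin libraries and 632 to 657 FPKM in the DMSO libraries. Single markers moved apart as deposited. LYZ averaged 42.8 FPKM with corilagin and 68.5 FPKM with DMSO (limma adjusted p = 0.00502). MPO averaged 0.471 FPKM with corilagin and 1.58 FPKM with DMSO (limma adjusted p = 0.00967), and FLT3 was higher with corilagin. Marker values after GC correction are not given here. The erythroid markers HBB and HBA1 were at 0 throughout, as were CDH1 and EPCAM (epithelial), MS4A1 (B cell) and DCN and COL1A2 (fibroblast). The epithelial marker KRT8 averaged 1.35 FPKM in corilagin libraries and 1.80 FPKM in DMSO libraries. T cell markers summed to at most 0.0625 FPKM in any library. The B cell marker CD79A averaged 1.98 FPKM in corilagin libraries and 2.04 FPKM in DMSO libraries. DMSO replicate 3 stood apart from DMSO replicates 1 and 2, with a chi-square per gene of 88.9 and 70.7 against them, where those 2 differed by 4.54 and the corilagin libraries among themselves by 2.44 to 3.38. This difference followed the GC content of the transcript.

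Corilagin libraries carried less mRNA of EHMT2, MEN1, KAT2A, HDAC3 and KDM1A than DMSO libraries. They carried more mRNA of SIRT1, RNF2, CREBBP, EZH2 and EP300. In bulk RNA, fewer cells that express a gene and less of its RNA per cell cannot be told apart. These 10 genes passed the test (limma adjusted p under 0.05), 5 in each direction, and 38 did not. Of the 48 genes 10.4% were called higher and 10.4% lower, against 11.9% higher and 13.5% lower among all 9868 genes tested. The share called was thus near that of all genes. The median log2 difference was -0.05 over the 48 genes and 0.03 over all genes, and the 48 divided into 22 positive and 26 negative values. All 3 corilagin libraries lay above all DMSO libraries in 13 of the genes and below them in 10, so 25 overlapped. That is 27.1% and 20.8%, beside 25.0% and 23.3% of all genes.

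**Figure D1:**
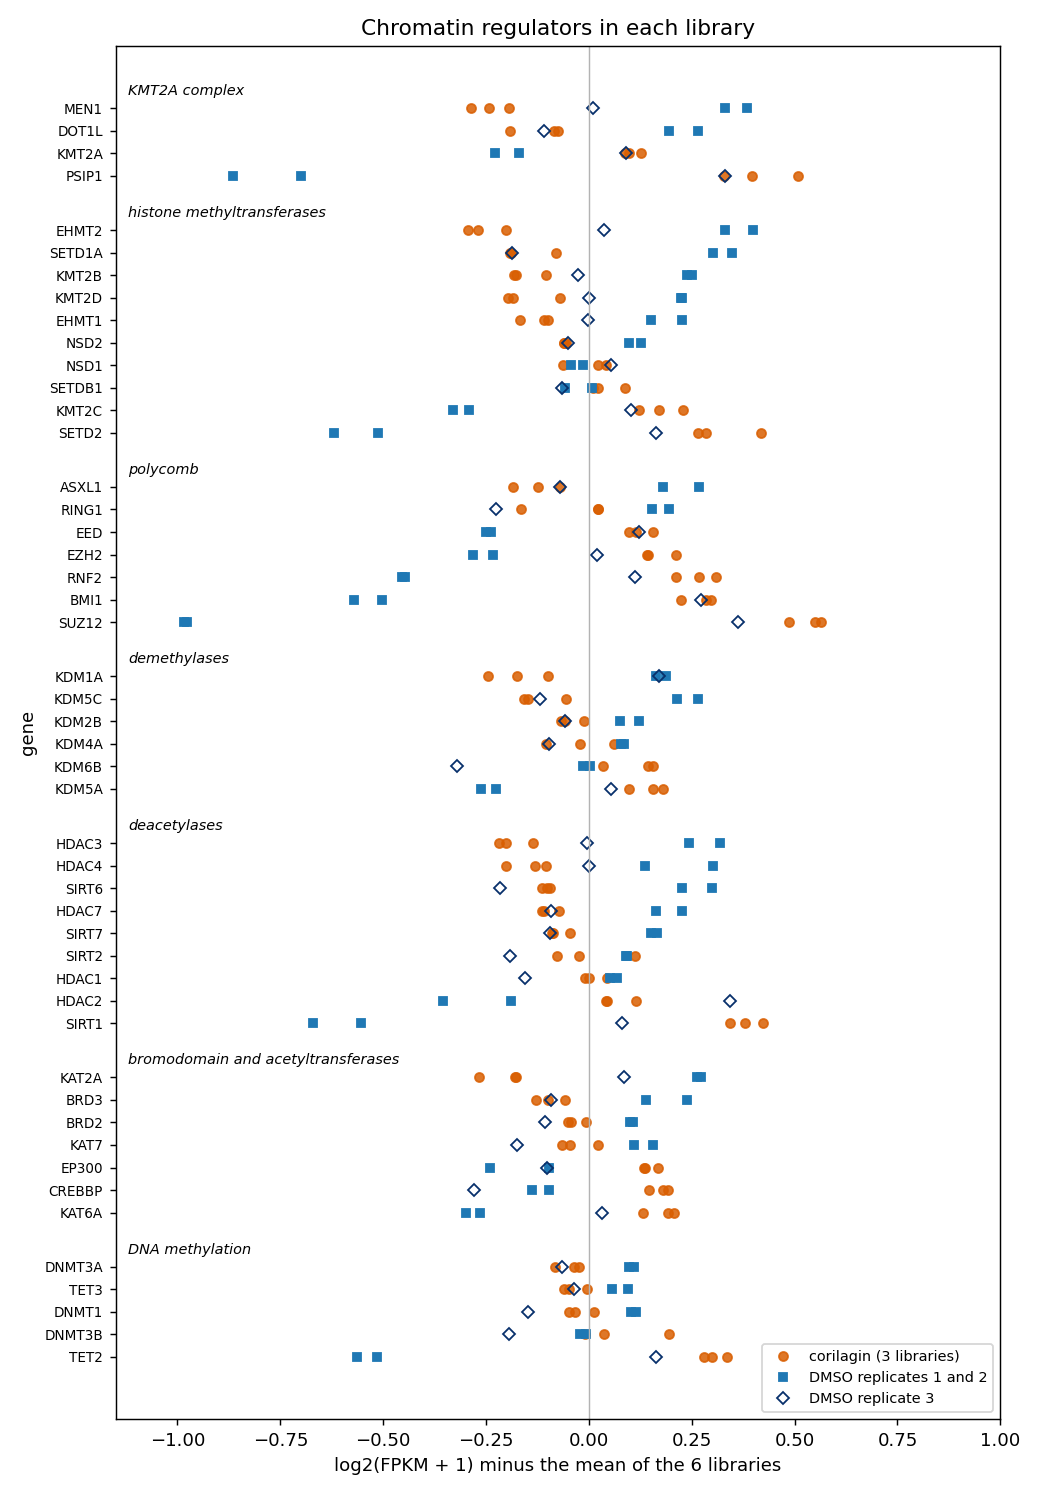
Level of each of the 48 tested chromatin regulators in each library, as log2(FPKM + 1) minus the mean of that gene over the 6 libraries, grouped by class and ordered by the log2 difference of corilagin minus DMSO. Circles are the 3 corilagin libraries, squares DMSO replicates 1 and 2, and open diamonds DMSO replicate 3, which lies nearer to the corilagin mean than to the other DMSO libraries in 41 of the 48 genes.

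DMSO replicate 3 lay nearer to the corilagin mean than to the mean of DMSO replicates 1 and 2 in 41 of the 48 genes, or 85.4%, against 68.1% of all tested genes. The plot of the genes by library shows it as diamonds set among or beside the corilagin circles. Across the 48 genes the difference between DMSO replicate 3 and the other DMSO libraries ran against GC content, with a Spearman rho of -0.84. Over all 9859 genes with a GC value the rho was also -0.84. The log2 difference between corilagin and DMSO had a rho of -0.72 with GC content over the 48 genes and -0.64 over all genes. Both differences use DMSO replicates 1 and 2. Against DMSO replicate 3 alone, the difference of corilagin had a rho of -0.21 over the 48 genes and -0.01 over all genes. For a gene whose call rests on DMSO replicates 1 and 2, treatment and the GC-related difference among DMSO libraries cannot be told apart.

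**Figure D2:**
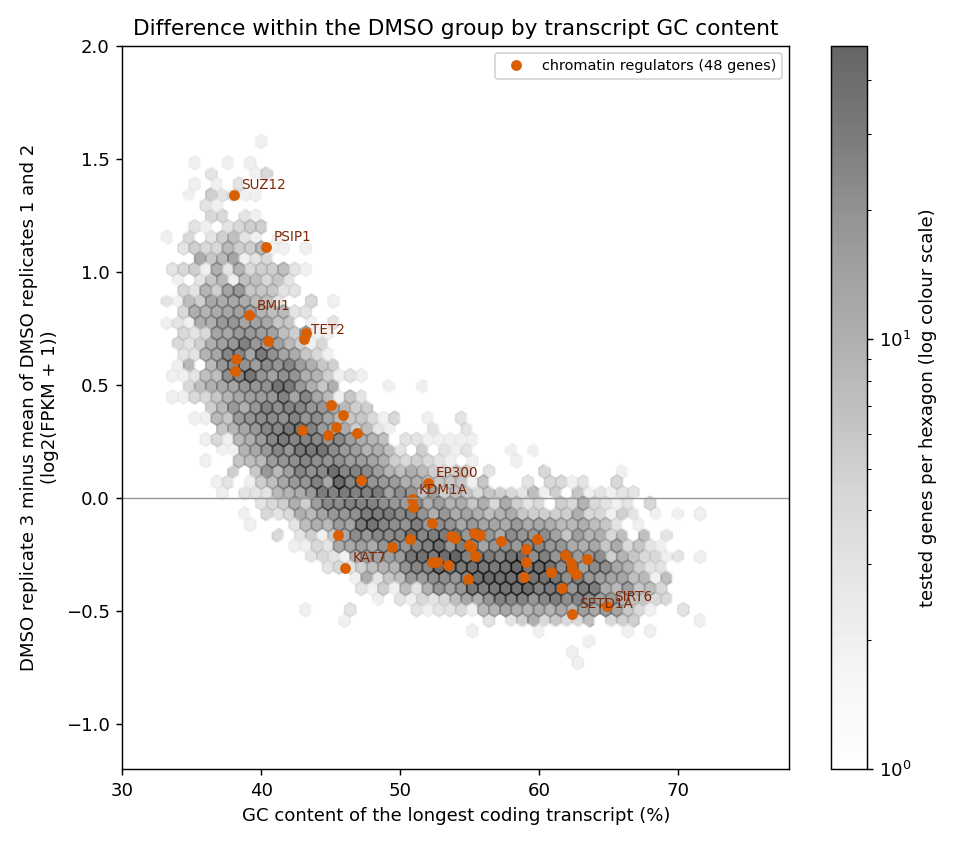
Difference between DMSO replicate 3 and the mean of DMSO replicates 1 and 2, on the log2(FPKM + 1) scale, against the GC content of the longest coding transcript in percent. Orange points are the 48 chromatin regulators and grey hexagons all tested genes on a log colour scale; both fall along the same curve, with SUZ12 and PSIP1 at the upper left and SETD1A and SIRT6 at the lower right.

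The 16 of the 48 genes with the lowest GC content (38.0 to 46.9%) had a median log2 difference of 0.35 between corilagin and DMSO, and 0.49 between DMSO replicate 3 and the other DMSO libraries. The 16 genes of highest GC content (55.4 to 64.9%) had medians of -0.22 and -0.29. Of the low-GC genes 3 were called higher and 0 lower, and 14 of the 16 had positive values. Of the high-GC genes 1 was called higher and 3 lower. These counts were not made over all genes of the same GC content. Over all genes the log2 difference also ran against GC content (Spearman rho -0.64). A pair of further fits was therefore set beside the one as deposited. In the first, called GC correction here, the trend of each library with GC content was removed, which would also remove any true difference that follows GC content. In the second, DMSO replicate 3 was the only DMSO library, so that its spread came from the corilagin libraries. After GC correction, 12 of the 48 genes were higher (25.0%) and 6 lower (12.5%), against 21.8% and 23.2% of all genes. Against DMSO replicate 3 alone, 7 were higher (14.6%) and 6 lower (12.5%), against 19.4% and 18.6% of all genes.

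EHMT2, MEN1, KAT2A, HDAC3 and KDM1A (lower) and CREBBP, EP300 and SIRT1 (higher) were called the same way as deposited, after GC correction and against DMSO replicate 3 alone. These are 8 of the 48 genes, or 16.7%, beside 19.7% of all genes. The fits share their libraries, so they are not separate tests. As deposited, limma called 0 of the 48 genes in either direction once any library other than DMSO replicate 3 was left out, and the largest adjusted p of the 10 called genes over these fits ran from 0.0979 for KAT2A to 0.175 for EZH2. Over all 9868 genes, these 5 fits called 131 to 369 higher and 176 to 483 lower. In those fits 6 to 10 of the 48 genes were higher and 5 to 8 lower at an unadjusted limma p under 0.05. That count was not made over all genes. Without DMSO replicate 3, 16 genes were called higher and 24 lower, against 40.8% and 36.5% of all genes. After GC correction, the 8 genes were called whichever library was left out, which was not counted over all genes. The split of the calls also moved with scaling: it was 2 higher and 7 lower under median-of-ratios scaling, and 6 higher and 4 lower after scaling to equal library sums. Over all genes it was 1171 higher and 1331 lower as deposited and 1620 higher and 1059 lower after scaling to equal sums, which moved the median log2 difference of all genes to 0.14.

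**Figure D3:**
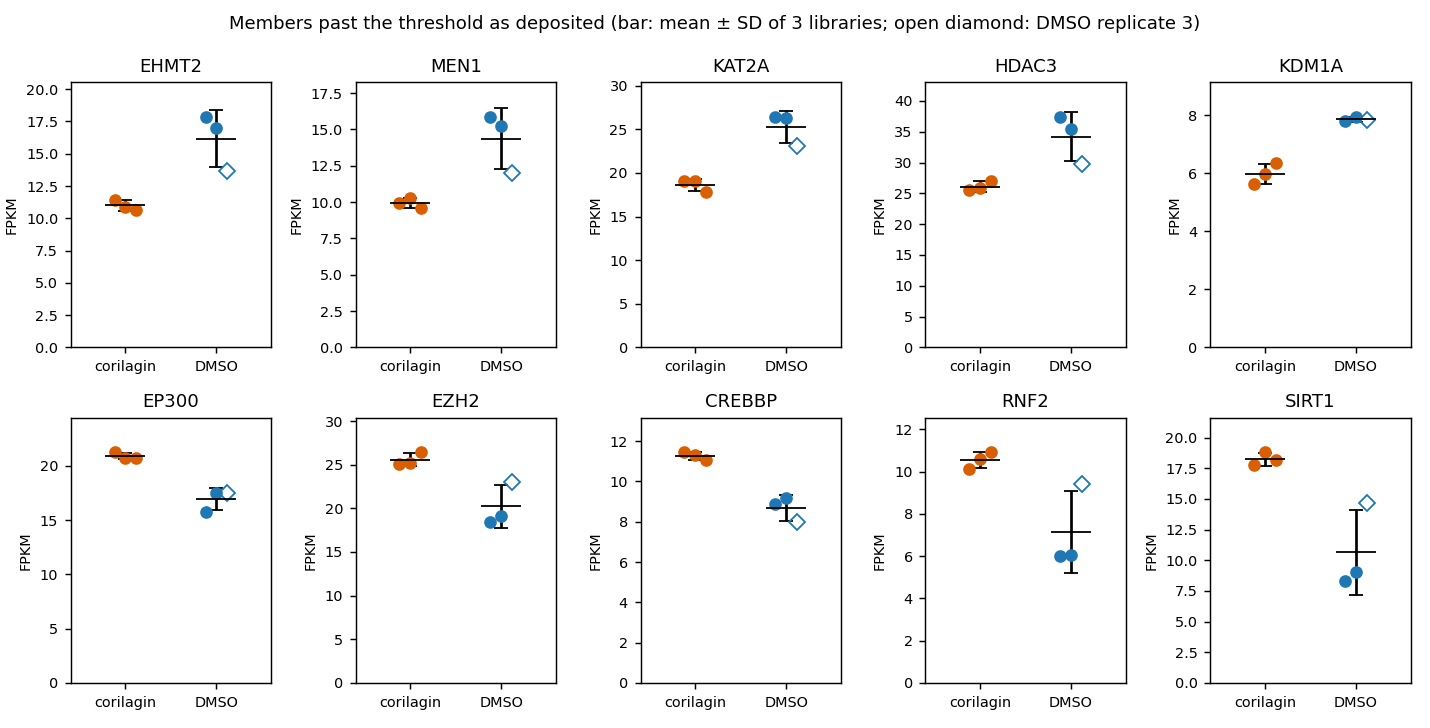
FPKM in each library for the 10 chromatin regulators past the threshold as deposited, with corilagin (orange) left of DMSO (blue), the mean and SD of 3 libraries as bars, and DMSO replicate 3 as an open diamond. In each panel the groups do not overlap, and in EHMT2, MEN1, KAT2A, HDAC3, EZH2, RNF2 and SIRT1 the diamond is the DMSO library nearest to corilagin.

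Among the KMT2A complex and its partners, MEN1 fell and the other 3 genes did not pass the test. MEN1 encodes menin, the scaffold through which KMT2A and its fusions reach chromatin (chromosome 11, 64803510 to 64811294, minus strand, GRCh38). It had 9.92, 10.3 and 9.59 FPKM in the corilagin libraries and 15.9, 15.2 and 11.996 FPKM in the DMSO libraries. The groups did not overlap, and DMSO replicate 3 was the lowest DMSO library. The mean of 9.93 ± 0.352 FPKM with corilagin was 0.691 times that of 14.4 ± 2.08 FPKM with DMSO (SD, n = 3 each), a log2 difference of -0.48 (SE 0.115, limma adjusted p = 0.0271). It was -0.30 after GC correction (limma adjusted p = 0.00187) and -0.25 against DMSO replicate 3 alone (limma adjusted p = 0.0119).

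KMT2A itself, whose FPKM adds the fusion and the normal transcript, had 8.70, 8.50 and 8.44 FPKM in the corilagin libraries and 6.58, 6.89 and 8.45 FPKM in the DMSO libraries. The groups overlapped through DMSO replicate 3 alone. The log2 difference was 0.21 (95% interval -0.04 to 0.45, limma adjusted p = 0.154), and 0.01 against DMSO replicate 3 (limma adjusted p = 0.886). DOT1L, the methyltransferase of lysine 79 of histone H3, had 16.4, 16.5 and 15.1 FPKM with corilagin and 21.1, 20.1 and 16.1 FPKM with DMSO. DMSO replicate 3 lay among the corilagin libraries, and the log2 difference of -0.23 (95% interval -0.50 to 0.03, limma adjusted p = 0.146) was -0.01 after GC correction. PSIP1, which encodes LEDGF, the reader that tethers menin and KMT2A to chromatin, had 25.7, 27.0 and 29.3 FPKM with corilagin and 10.7, 12.1 and 25.8 FPKM with DMSO. DMSO replicate 3 was higher than its DMSO partners and within the corilagin range. The log2 difference was 0.82 (SE 0.290, limma adjusted p = 0.0711). It was 0.48 after GC correction (limma adjusted p = 0.0328) and 0.08 against DMSO replicate 3 (limma adjusted p = 0.375). PSIP1 and DOT1L each overlap a tested gene on the opposite strand, and the sources used here do not state that counting used strand.

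Of the other 10 histone methyltransferases, EHMT2 fell and 9 did not pass the test, with a median log2 difference of -0.18 as deposited and -0.08 after GC correction. EHMT2 encodes G9a, which methylates lysine 9 of histone H3 (chromosome 6, 31879759 to 31897687, minus strand). It had 11.4, 10.9 and 10.7 FPKM in the corilagin libraries and 17.9, 17.0 and 13.7 FPKM in the DMSO libraries. All corilagin libraries were below all DMSO libraries. The means were 10.998 ± 0.402 FPKM with corilagin and 16.2 ± 2.21 FPKM with DMSO (SD, n = 3 each), a ratio of 0.680 and a log2 difference of -0.51 (SE 0.111, limma adjusted p = 0.0214). The difference was -0.30 after GC correction (limma adjusted p = 0.00139) and -0.29 against DMSO replicate 3 (limma adjusted p = 0.00495). EHMT1, which encodes its partner GLP, averaged 3.995 FPKM with corilagin and 4.96 FPKM with DMSO (log2 difference -0.25, limma adjusted p = 0.0730).

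The writers of lysine 4 methylation differed in sign. KMT2B averaged 9.99 FPKM with corilagin and 12.7 FPKM with DMSO (limma adjusted p = 0.0598), KMT2D 7.66 FPKM with corilagin and 9.68 FPKM with DMSO (limma adjusted p = 0.0574), and SETD1A 11.02 FPKM with corilagin and 14.1 FPKM with DMSO (limma adjusted p = 0.144). KMT2C averaged 3.02 FPKM with corilagin and 2.19 FPKM with DMSO (limma adjusted p = 0.0762). None of the 4 passed the test, and after GC correction all 4 lay between -0.11 and 0.23 on the log2 scale, again without passing it. SETD2, which trimethylates lysine 36 of histone H3, had 9.61, 9.75 and 10.8 FPKM with corilagin and 4.75, 5.19 and 8.89 FPKM with DMSO. Its groups did not overlap, but DMSO replicate 3 lay close to the corilagin libraries. The log2 difference of 0.64 missed the threshold as deposited (limma adjusted p = 0.0532), passed it after GC correction (0.44, limma adjusted p = 0.0169), and missed it against DMSO replicate 3 (0.16, limma adjusted p = 0.120). NSD1 and NSD2, which methylate lysine 36, had log2 differences of 0.00 and -0.12, and SETDB1, which methylates lysine 9, one of 0.08.

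In the polycomb class 2 of 7 genes rose, EZH2 and RNF2, and 0 fell by limma or limma-voom (1, ASXL1, was lower at an unadjusted p under 0.05), with a median log2 difference of 0.33. The class had the lowest median GC content of the 7 classes, 44.8%, and after GC correction its median difference was 0.14. EZH2, the methyltransferase of lysine 27 of histone H3 (chromosome 7, 148807383 to 148884321, minus strand), had 25.1, 25.2 and 26.4 FPKM in the corilagin libraries and 18.5, 19.2 and 23.0 FPKM in the DMSO libraries. The groups did not overlap, and DMSO replicate 3 was nearest to corilagin. Its log2 difference was 0.33 (SE 0.0995, limma adjusted p = 0.0495), or 1.26 times in mean FPKM. It was 0.20 after GC correction (limma adjusted p = 0.0123) and 0.14 against DMSO replicate 3 (limma adjusted p = 0.0583). Leaving out 1 library after GC correction kept the EZH2 call in 4 of 6 fits.

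RNF2, the ubiquitin ligase of histone H2A in polycomb complex 1 (chromosome 1, 185045364 to 185102608, plus strand), had 10.1, 10.6 and 10.9 FPKM in the corilagin libraries and 6.02, 6.06 and 9.39 FPKM in the DMSO libraries. DMSO replicate 3 was close to the corilagin libraries. The log2 difference of 0.53 (SE 0.159, limma adjusted p = 0.0496) was 0.09 after GC correction (limma adjusted p = 0.213) and 0.15 against DMSO replicate 3 (limma adjusted p = 0.0945). The RNF2 call was lost in both. SUZ12, a core partner of EZH2, had 47.9, 50.1 and 50.7 FPKM with corilagin and 16.6, 16.7 and 43.8 FPKM with DMSO. It had the lowest GC content of the tested genes in the list, 38.0%, and DMSO replicate 3 differed from the other DMSO libraries by more than from the corilagin libraries. The log2 difference of SUZ12 was 1.07 as deposited (SE 0.341, limma adjusted p = 0.0570), 0.62 after GC correction (limma adjusted p = 0.0163) and 0.17 against DMSO replicate 3 (limma adjusted p = 0.0196). BMI1, the RING partner of RNF2, had 7.32, 6.98 and 7.39 FPKM with corilagin and 3.82, 3.59 and 7.24 FPKM with DMSO (limma adjusted p = 0.0971). Against DMSO replicate 3 the BMI1 difference was 0.00 (limma adjusted p = 0.977). EED, a core subunit of complex 2, RING1 and ASXL1, which encodes a cofactor of the H2A deubiquitinase, had log2 differences of 0.24, -0.08 and -0.25 as deposited. None was past the threshold. Against DMSO replicate 3 these differences were 0.0011, 0.19 and -0.05.

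KDM1A was the 1 of 6 demethylases called as deposited. It encodes LSD1, which removes methyl groups from lysine 4 of histone H3 (chromosome 1, 23019443 to 23083689, plus strand). KDM1A had 5.63, 5.97 and 6.34 FPKM in the corilagin libraries and 7.80, 7.94 and 7.84 FPKM in the DMSO libraries. All corilagin libraries were below all DMSO libraries, and here the 3 DMSO libraries lay together. The means were 5.98 ± 0.355 FPKM with corilagin and 7.86 ± 0.0756 FPKM with DMSO (SD, n = 3 each), a ratio of 0.761. The log2 difference was -0.35 (SE 0.0797, limma adjusted p = 0.0252), -0.28 after GC correction (limma adjusted p = 0.00933) and -0.34 against DMSO replicate 3 (limma adjusted p = 0.00586). The length behind the KDM1A values was 18325 bases, against 3059 bases of its longest coding transcript, so its FPKM is not a level per base of mRNA.

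KDM6B, a demethylase of lysine 27, had 6.48, 6.42 and 5.88 FPKM with corilagin and 5.73, 5.65 and 4.38 FPKM with DMSO. Here DMSO replicate 3 was farther from corilagin than its partners, the reverse of most of the list. The log2 difference of 0.22 did not pass the test as deposited (limma adjusted p = 0.155) and did after GC correction (0.44, limma adjusted p = 0.000375) and against DMSO replicate 3 (0.43, limma adjusted p = 0.00158). KDM5A and KDM5C, which remove methyl groups from lysine 4, differed in sign as deposited, at 0.29 and -0.24, and neither passed (limma adjusted p = 0.0760 and 0.147). After GC correction KDM5A and KDM5C were at 0.07 and -0.11, and against DMSO replicate 3 at 0.09 and -0.0020. As deposited, KDM2B and KDM4A were at -0.09 and -0.04.

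Among the 9 deacetylases SIRT1 rose, HDAC3 fell and 7 did not pass the test. SIRT1, the NAD-dependent deacetylase of histones and p53 (chromosome 10, 67884669 to 67918390, plus strand), had 17.7, 18.8 and 18.2 FPKM in the corilagin libraries and 8.29, 9.06 and 14.6 FPKM in the DMSO libraries. The groups did not overlap, and DMSO replicate 3 lay between the other DMSO libraries and corilagin. The means were 18.3 ± 0.530 FPKM with corilagin and 10.7 ± 3.46 FPKM with DMSO (SD, n = 3 each), a ratio of 1.71 and a log2 difference of 0.76 (SE 0.189, limma adjusted p = 0.0300). After GC correction the difference was 0.42 (limma adjusted p = 0.00151), and against DMSO replicate 3 it was 0.30 (limma adjusted p = 0.00233). Its ratio was the largest among the 10 called genes.

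HDAC3, the catalytic subunit of the NCOR and SMRT corepressor complexes (chromosome 5, 141620876 to 141636870, minus strand), had 25.5, 25.8 and 27.1 FPKM in the corilagin libraries and 37.4, 35.5 and 29.7 FPKM in the DMSO libraries. DMSO replicate 3 was the lowest DMSO library and still above all corilagin libraries. The log2 difference was -0.37 (SE 0.101, limma adjusted p = 0.0380), with means of 26.1 ± 0.842 FPKM with corilagin and 34.2 ± 3.99 FPKM with DMSO (SD, n = 3 each). It was -0.27 after GC correction (limma adjusted p = 0.00466) and -0.18 against DMSO replicate 3 (limma adjusted p = 0.0235).

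HDAC1 had the highest FPKM of the list, 86.7, 86.2 and 89.4 FPKM with corilagin and 89.9, 91.1 and 77.8 FPKM with DMSO. The groups overlapped and the log2 difference was 0.02 (95% interval -0.18 to 0.22, limma adjusted p = 0.847). Against DMSO replicate 3 alone HDAC1 was called higher (0.17, limma adjusted p = 0.0142). HDAC2, its close paralog, had 11.9, 11.96 and 12.6 FPKM with corilagin and 8.84, 10.04 and 14.9 FPKM with DMSO. The corilagin libraries lay between DMSO replicate 3 above and the other DMSO libraries below. The sign of HDAC2 turned with the GC trend: its log2 difference was 0.13 as deposited (limma adjusted p = 0.559), -0.30 after correction (limma adjusted p = 0.00193) and -0.28 against DMSO replicate 3 (limma adjusted p = 0.00551). The class IIa deacetylases HDAC4 and HDAC7 were at -0.29 (limma adjusted p = 0.0636) and -0.20 (limma adjusted p = 0.169) as deposited. Against DMSO replicate 3 HDAC4 and HDAC7 were at -0.15 and -0.0058. As deposited, SIRT2, SIRT6 and SIRT7 were at 0.01, -0.21 and -0.15, none past the threshold.

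In the bromodomain and acetyltransferase class CREBBP and EP300 rose, KAT2A fell and 4 of 7 genes did not pass the test. CREBBP and EP300 encode the paralogous coactivators CBP and p300, which acetylate lysines 18 and 27 of histone H3. CREBBP (chromosome 16, 3725054 to 3880726, minus strand) had 11.4, 11.3 and 11.1 FPKM in the corilagin libraries and 8.90, 9.18 and 7.97 FPKM in the DMSO libraries. The groups did not overlap, and DMSO replicate 3 was the DMSO library farthest from corilagin. The log2 difference of CREBBP was 0.34 (SE 0.0836, limma adjusted p = 0.0286), with means of 11.3 ± 0.199 FPKM with corilagin and 8.69 ± 0.633 FPKM with DMSO (SD, n = 3 each). It was 0.49 after GC correction (limma adjusted p = 0.000245) and 0.45 against DMSO replicate 3 (limma adjusted p = 0.000294).

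EP300 (chromosome 22, 41091786 to 41180079, plus strand) had 21.3, 20.8 and 20.7 FPKM in the corilagin libraries and 15.8, 17.5 and 17.5 FPKM in the DMSO libraries. The lowest corilagin library was above the highest DMSO library. The ratio of means was 1.24 and the log2 difference 0.29 (SE 0.0783, limma adjusted p = 0.0363). It was 0.38 after GC correction (limma adjusted p = 0.00523) and 0.25 against DMSO replicate 3 (limma adjusted p = 0.00460). KAT2A encodes GCN5, the acetyltransferase of the SAGA and ATAC complexes (chromosome 17, 42113108 to 42121358, minus strand). KAT2A had 19.0, 19.1 and 17.9 FPKM in the corilagin libraries and 26.4, 26.2 and 23.1 FPKM in the DMSO libraries. All corilagin libraries were below all DMSO libraries. Its log2 difference was -0.42 (SE 0.0853, limma adjusted p = 0.0180), -0.22 after GC correction (limma adjusted p = 0.00907) and -0.29 against DMSO replicate 3 (limma adjusted p = 0.00292). KAT6A, an acetyltransferase also known from fusions in leukaemia, averaged 9.36 FPKM with corilagin and 7.15 FPKM with DMSO (limma adjusted p = 0.0512). Its log2 difference was 0.35 as deposited, 0.26 after GC correction (limma adjusted p = 0.0137) and 0.14 against DMSO replicate 3. Leaving out 1 library after GC correction kept the KAT6A call in 3 of 6 fits. KAT7 and the BET readers BRD2 and BRD3 had log2 differences of -0.06, -0.07 and -0.19 as deposited, none past the threshold.

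None of the 5 tested genes of DNA methylation passed the limma test as deposited. Of these TET2 alone had an unadjusted p under 0.05, and limma-voom on the recovered fragments called it higher. Their median log2 difference was -0.05 as deposited and 0.09 after GC correction. DNMT1, the maintenance methyltransferase, had 51.1, 49.6 and 49.1 FPKM with corilagin and 54.5, 55.0 and 45.7 FPKM with DMSO. The groups overlapped through DMSO replicate 3, and the log2 difference was -0.05 (95% interval -0.26 to 0.17, limma adjusted p = 0.710). DNMT3A and DNMT3B, which methylate unmarked DNA, had differences of -0.10 (limma adjusted p = 0.386) and 0.15 (limma adjusted p = 0.255). DNMT3B passed the test after GC correction, at 0.26 (limma adjusted p = 0.0105), and was at 0.27 against DMSO replicate 3. TET2, which oxidises methylcytosine and is often mutated in myeloid leukaemia, had 3.004, 3.06 and 3.16 FPKM with corilagin and 1.24, 1.31 and 2.70 FPKM with DMSO. DMSO replicate 3 was well above the other DMSO libraries. The TET2 difference was 0.61 as deposited (limma adjusted p = 0.0528), 0.40 after GC correction (limma adjusted p = 0.0198) and 0.14 against DMSO replicate 3 (limma adjusted p = 0.208). TET3 was at -0.08. TET1 had 0.183, 0.128 and 0.176 FPKM with corilagin and 0.0688, 0.0985 and 0.181 FPKM with DMSO, from 13 to 38 fragments a library.

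**Figure D4:**
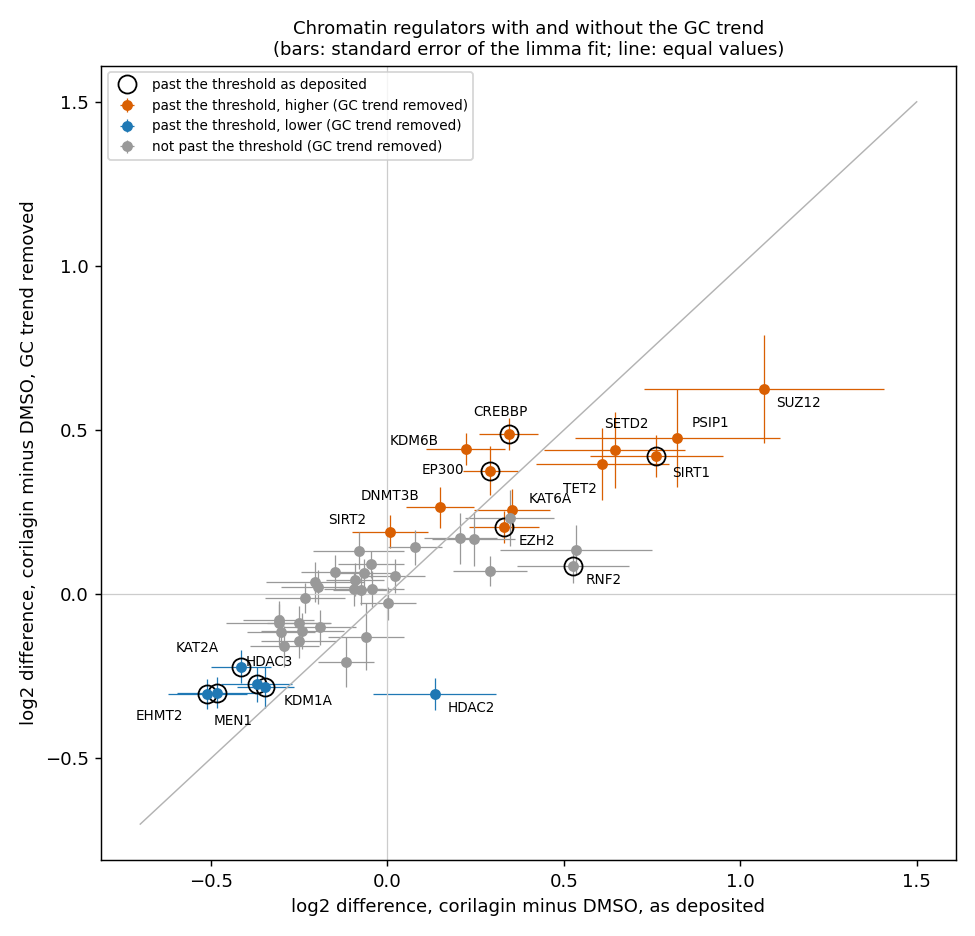
Log2 difference of corilagin minus DMSO for the 48 chromatin regulators as deposited (horizontal axis) and with the GC trend of each library removed (vertical axis), with bars for the standard error of the limma fit and a line of equal values. Orange and blue points pass the threshold after correction and black rings mark those past it as deposited; RNF2 is ringed but grey, HDAC2 lies at 0.13 on one axis and -0.30 on the other, and SUZ12, PSIP1 and SIRT1 lie well below the line.

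The GC-corrected fit called 18 genes, of which 9 had been called as deposited and 9 had not. The 9 added were SUZ12, PSIP1, TET2, SETD2, KAT6A, KDM6B, DNMT3B and SIRT2 (higher) and HDAC2 (lower), which the plot of both fits shows as coloured points without rings. Of the 18, 11 were called in all 6 fits that left out 1 library: the 8 genes called in all 3 fits, KDM6B, DNMT3B and HDAC2. Genes called in all 6 were not counted over all genes, so no share stands beside the 11. Each of these fits called 1419 to 3103 of all genes higher and 1624 to 3260 lower. Over the 48 genes the rho of the log2 difference with GC content was -0.32 after GC correction, against 0.00 over all genes. The 16 low-GC genes then had a median difference of 0.19.

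Promoters of 5 of the 8 genes are shown, as 300 bases across the start of the gene in RefSeq, for the menin and LSD1 genes that fell and the paralogous CREBBP and EP300 and the deacetylase SIRT1 that rose. They are on GRCh38.p14 and read 5′ to 3′ on the strand of the gene. The RefSeq starts of MEN1 and EP300 lie inside the GENCODE bounds given for these genes, so both windows fall within those bounds. Capitals mark the GC box GGGCGG, the E-box CACGTG and the CCAAT box CCAAT, searched on both strands, so that the reverse forms CCGCCC and ATTGG are also in capitals. Overlapping GC boxes run together.
MEN1, chr11:64810502-64810801, minus strand: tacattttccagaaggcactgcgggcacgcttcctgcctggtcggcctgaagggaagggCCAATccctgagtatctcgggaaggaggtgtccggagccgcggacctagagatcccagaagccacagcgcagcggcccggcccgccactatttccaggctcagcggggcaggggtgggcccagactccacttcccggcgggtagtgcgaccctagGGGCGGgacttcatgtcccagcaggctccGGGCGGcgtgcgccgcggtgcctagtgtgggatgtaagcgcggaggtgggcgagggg
KDM1A, chr1:23019218-23019517, plus strand: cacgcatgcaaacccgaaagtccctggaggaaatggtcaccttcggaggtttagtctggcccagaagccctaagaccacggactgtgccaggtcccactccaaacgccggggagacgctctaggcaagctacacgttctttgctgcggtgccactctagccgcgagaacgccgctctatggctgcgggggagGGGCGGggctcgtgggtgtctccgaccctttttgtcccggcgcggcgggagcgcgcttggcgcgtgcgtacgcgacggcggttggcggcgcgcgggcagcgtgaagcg
CREBBP, chr16:3880664-3880963, minus strand: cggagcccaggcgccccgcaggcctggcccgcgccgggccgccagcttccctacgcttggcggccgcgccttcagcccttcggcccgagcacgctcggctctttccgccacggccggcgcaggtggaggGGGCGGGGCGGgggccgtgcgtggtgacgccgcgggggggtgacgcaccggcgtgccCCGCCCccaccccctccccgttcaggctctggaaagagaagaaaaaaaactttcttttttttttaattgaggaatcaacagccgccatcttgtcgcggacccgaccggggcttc
EP300, chr22:41092342-41092641, plus strand: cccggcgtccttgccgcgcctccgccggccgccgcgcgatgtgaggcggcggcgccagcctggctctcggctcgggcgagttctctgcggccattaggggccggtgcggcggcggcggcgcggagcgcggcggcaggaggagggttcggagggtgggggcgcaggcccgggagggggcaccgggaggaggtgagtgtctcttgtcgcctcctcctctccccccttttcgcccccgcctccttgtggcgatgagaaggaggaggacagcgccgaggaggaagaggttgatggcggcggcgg
SIRT1, chr10:67884406-67884705, plus strand: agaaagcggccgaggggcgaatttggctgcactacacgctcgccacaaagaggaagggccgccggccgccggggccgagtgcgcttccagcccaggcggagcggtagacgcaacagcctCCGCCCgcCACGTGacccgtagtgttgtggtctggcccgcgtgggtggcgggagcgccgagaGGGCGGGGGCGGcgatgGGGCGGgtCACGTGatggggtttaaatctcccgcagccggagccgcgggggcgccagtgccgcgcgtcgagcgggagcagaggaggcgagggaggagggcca
MEN1 held 2 GC boxes and 1 CCAAT box, KDM1A 1 GC box, CREBBP 3 GC boxes, and SIRT1 4 GC boxes and 2 E-boxes. EP300 held none of the 3 motifs in this window. Promoters were found for 46 of the 49 genes. The GC box was in 28 of these 46 (60.9%), against 44.6% of 27305 promoters in the table. The E-box was in 8 (17.4%), against 7.43%, and the CCAAT box in 11 (23.9%), against 35.7%. The median GC content of the 46 promoters was 68.2%, against 58.3% of all promoters. Promoters of like GC content were not compared, so whether the motif shares follow base composition was not tested. These matches are a description of letters and show no binding.

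A second list of 151 companion chromatin genes, further subunits, paralogs and partners of the same classes, was read the same way. Of the 141 that were tested, 20 were higher, 20 lower and the rest not called. These calls made up 14.2% in each direction, near the shares of all genes. After GC correction 37 were higher (26.2%) and 29 lower (20.6%), against 21.8% and 23.2% of all genes. Among companion methyltransferases 2 of 19 rose and 5 fell. CARM1, an arginine methyltransferase and coactivator, averaged 12.7 FPKM with corilagin and 26.3 FPKM with DMSO, a ratio of 0.482 (limma adjusted p = 0.00457). PRMT1, the main arginine methyltransferase, averaged 71.4 FPKM with corilagin and 112 FPKM with DMSO (limma adjusted p = 0.0144). SETDB2 and KMT5B rose, at ratios of 1.74 and 1.599.

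Of the companions of KMT2A, 3 of 19 rose and 3 fell. CDK9, the kinase of the elongation factor P-TEFb, had a ratio of 0.717 and WDR5, a core subunit of KMT2 complexes, one of 0.754. CDC73 and AFF4, of the PAF and super elongation complexes, had ratios of 1.71 and 1.599. The CDC73 call was lost against DMSO replicate 3 alone (0.18, limma adjusted p = 0.0513), and its log2 difference of 0.73 was 0.21 after GC correction. Among companion acetyltransferases and bromodomain genes 8 of 19 rose and 1 fell: the nuclear receptor coactivators NCOA3 and NCOA2 had ratios of 1.71 and 1.54, and BRD9, of the ncBAF complex, one of 0.676. This list had a median GC content of 45.3% and a median log2 difference of 0.33 as deposited and 0.18 after GC correction. After GC correction 10 of the 19 were higher (52.6%) and 1 lower (5.26%), against 21.8% and 23.2% of all genes. Companion polycomb genes gave 1 rise and 2 falls of 22, RYBP at a ratio of 1.88, and the chromodomain genes CBX6 and CBX2 at 0.638 and 0.741. The CBX2 call was lost against DMSO replicate 3 alone (limma adjusted p = 0.109).

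Partners of the deacetylases gave 1 rise and 3 falls of 14. The NuRD subunits MTA2 and CHD3 fell to 0.721 and 0.749 of their DMSO means, and MTA3 had a ratio of 1.36. Companion demethylases gave 3 rises and 1 fall of 14: KDM3A at 8.49 FPKM with corilagin and 6.15 FPKM with DMSO, RCOR1, the CoREST scaffold that holds KDM1A, at a ratio of 1.24, and RIOX1 at a ratio of 0.749. The RIOX1 call was lost against DMSO replicate 3 alone (limma adjusted p = 0.0716). In DNA methylation 1 of 13 rose and 2 fell. UHRF1, which brings DNMT1 to replicated DNA, fell to 0.761 of its DMSO mean (limma adjusted p = 0.0275). GADD45A averaged 3.06 FPKM with corilagin and 1.43 FPKM with DMSO, a ratio of 2.14 (limma adjusted p = 0.00373). GADD45B had a ratio of 0.814, and its call was lost after GC correction (limma adjusted p = 0.237). Among remodellers 1 of 21 rose and 3 fell, CHD2 at a ratio of 1.77, DAXX at 0.682 and SMARCD2 at 0.697.

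Targets of KMT2A fusions were read beside MEN1 and KMT2A. HOXA9 averaged 14.2 FPKM with corilagin and 14.3 FPKM with DMSO (limma adjusted p = 0.977). MEIS1 averaged 6.25 ± 0.122 FPKM with corilagin and 4.64 ± 0.559 FPKM with DMSO (SD, limma adjusted p = 0.0335). FLT3 averaged 311 ± 6.30 FPKM with corilagin and 217 ± 39.4 FPKM with DMSO (SD, log2 difference 0.53, limma adjusted p = 0.0273). Both calls are as deposited, and neither gene is given after GC correction or against DMSO replicate 3. From the values given here, treatment and the difference among DMSO libraries cannot be told apart for these genes.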

How the data were processed

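Poly(A) RNA of MV411 cells was sequenced as read pairs, per the labels' protocols. The submitters' processing notes name fastp 0.22.0, HISAT2 2.1.0, HTSeq 0.9.1, DESeq 1.38.3 and GRCh38, without settings, and neither the corilagin dose nor the use of strand is given in the sources used here. The authors deposited FPKM for 20036 genes in 6 libraries. FPKM divides by gene length and library total. The length behind the values was a median of 1.64 times the longest coding transcript over the 48 tested genes, so levels were not ranked between genes as mRNA abundance. A few abundant genes can shift all others, and close paralogs or overlapping genes can share or lose fragments; 12 of the 49 genes overlap a tested gene.

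Whole fragments were recovered from the FPKM steps for all 15921 genes above 0 (tolerance 0.001), with 99.5% of the inferred totals in listed genes (a share that follows from a search for whole multiples); limma-voom on them called 1243 genes higher and 1322 lower, 7 and 6 of them in the list; the tested genes of the list held 317 to 17023 fragments a library. No pair of libraries of the same group agreed within sampling noise, and pairs across the groups were not compared. Symbols matched for 20011 genes and GENCODE release 29 annotation for 19852.

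The test was limma 3.58.1 in R 4.3.3 (2-sided, with trend) on log2(FPKM + 1) over 6 libraries, on the 9868 genes whose mean reached 1 FPKM; p-values were adjusted by Benjamini-Hochberg over all 9868, and calls made under 0.05. Fold changes on this scale are understated for low genes, so ratios of mean FPKM are also given. On simulated data of this size, calls were made for 96 of 100 genes with a 1.5-fold change and 100 of 100 with a 2-fold change, with 4 false calls. The simulated libraries held no GC trend and no DMSO library that stood apart. These rates therefore do not carry over to the real libraries. The GC trend was removed with a natural spline of 5 degrees of freedom per library. The genes, lists, tests and alternatives were chosen with earlier results of these data known. Values per library are given for genes called without overlap and for KMT2A, MEN1, DOT1L, PSIP1, KDM1A, EZH2, DNMT1, HDAC1 and HDAC2; SETD2, SUZ12, BMI1, KDM6B, TET2 and TET1 were added after their values were seen. Of the companions, up to 2 rises and 2 falls per list without overlap are named, with means or ratios. Results for some marker genes are not reported here.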

Additional observations from a re-analysis of the deposited data

How the results depend on the processing

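The direction of the 10 called chromatin regulators held in all 25 alternatives, and their calls did not. Of the 48 genes, 5 were higher and 5 lower as deposited; the count higher was 3 with a pseudocount of 0.1 or 0.5, 2 with no filter, 2 under median-of-ratios scaling, 12 with the GC trend removed and 13 higher with 11 lower when a trend with length was removed too. Leaving out 1 library gave 0 to 16 higher and 0 to 24 lower, and with the GC trend removed 5 to 18 higher and 6 to 12 lower; the highest counts are those without DMSO replicate 3. Over all genes, 1171 higher and 1331 lower became 713 higher at a mean of at least 5 FPKM, 2151 and 2289 with the GC trend removed, 2110 and 2316 with length as well, and 1916 higher against DMSO replicate 3 alone. Leaving out 1 library gave 131 to 4030 higher and 176 to 3597 lower over all genes, and with the GC trend removed 1419 to 3103 and 1624 to 3260. Where a group kept 1 library, that library was assumed to vary like the other. Whether replicate numbers pair the libraries is not stated in the labels. Same-numbered deviations correlated at 0.28, 0.0787 and 0.339 in replicates 1, 2 and 3. With the GC trend removed they correlated at 0.096, 0.016 and 0.113, and these values do not decide whether the libraries were paired. With the replicate block 8 of the 48 genes were higher and 4 lower (1547 and 1330 of all genes), and with the block and the GC trend removed 12 and 7 (2155 and 2237). The sign of the log2 difference changed in 18 uncalled genes, 136 times, of which 12 passed the test. Against DMSO replicate 3 alone the log2 difference was -0.0033 in BMI1, 0.072 in BRD2, 0.12 in DNMT1, 0.017 in DNMT3A, -0.28 in HDAC2, 0.15 in KAT7, 0.012 in KDM2B, 0.076 in KDM4A, -0.052 in NSD1, 0.19 in RING1, 0.033 in SETD1A, 0.11 in SIRT6, 0.021 in SIRT7. At equal library sums the log2 difference was 0.051 in BRD2, 0.072 in DNMT1, 0.052 in KAT7, 0.019 in KDM2B, 0.062 in KDM4A, 0.037 in RING1, 0.034 in TET3. With the GC trend removed (with or without the replicate block) the log2 difference was 0.064 in BRD2, 0.092 in DNMT1, 0.017 in DNMT3A, -0.30 in HDAC2, 0.022 in HDAC7, 0.044 in KDM2B, 0.017 in KDM4A, -0.027 in NSD1, 0.13 in RING1, 0.038 in SIRT6, 0.068 in SIRT7, 0.014 in TET3. With GC and length trends removed the log2 difference was 0.025 in BRD2, 0.048 in DNMT1, -0.33 in HDAC2, 0.0021 in KDM2B, -0.060 in NSD1, 0.16 in RING1, 0.062 in SIRT6, 0.093 in SIRT7. Under quantile normalization the log2 difference was 0.028 in DNMT1, -0.067 in NSD1, -0.0082 in SIRT2. Under median-of-ratios scaling the log2 difference was -0.026 in HDAC1, -0.041 in NSD1, -0.040 in SIRT2. Over the fits that left out 1 library, with and without GC trend removal, it ran -0.14 to 0.082 in BRD2, -0.13 to 0.10 in DNMT1, -0.15 to 0.028 in DNMT3A, -0.35 to 0.010 in DOT1L, -0.049 to 0.084 in HDAC1, -0.32 to 0.34 in HDAC2, -0.29 to 0.041 in HDAC7, -0.26 to 0.0031 in KAT7, -0.14 to 0.072 in KDM2B, -0.10 to 0.056 in KDM4A, -0.045 to 0.033 in NSD1, -0.21 to 0.18 in RING1, -0.088 to 0.22 in SIRT2, -0.37 to 0.085 in SIRT6, -0.23 to 0.087 in SIRT7, -0.11 to 0.035 in TET3. The cause of these changes was not tested. Each tested gene of the list held at least 317 fragments in every library. The fits that removed the GC trend and left out a library other than DMSO replicate 3 were chosen after seeing the data.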
